A study of Mus musculus with 2 samples.

Results

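The genes described here encode the proteins of the cytosolic ribosome. They are the genes whose symbol is Rpl or Rps followed by a digit, p or a, without the Rps6k kinases and symbols marked -ps, that had at least 100 UMIs (unique molecular identifiers, a count of captured RNA molecules) in both libraries together. The symbols of 86 of 31053 listed genes matched, and 85 passed the count. Rpl10l, a retrogene copy of Rpl10, had 0 UMIs in the retained cells. Among the 85, Rps19bp1 matches the symbol rule but encodes a protein that binds Rps19 and is not itself a ribosomal protein. The skin came from C57Bl6 mice, male and female, 8 weeks of age. It was injected intradermally with 100 ng of sitagliptin, an inhibitor of the peptidase DPP4, in 100 µl of PBS, or with PBS alone, and processed after 48 h. Each treatment is a library of its own on the 10x Chromium system, so the design has 1 library per group, no test between treatments can be made, and no p-value is given. The labels do not say how many mice went into each library. All intervals are 95% intervals that cover counting error only, not the variation between animals or libraries.

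Ribosomal proteins surround the ribosomal RNA of the small (Rps) and large (Rpl) subunit, and most are needed in equal amounts in every ribosome. Their mRNAs are among the most abundant of a dividing cell, and many start with a run of pyrimidines (the 5′ terminal oligopyrimidine or TOP motif) through which mTORC1 and Larp1 control their translation. The mouse genome holds many retrotransposed copies of these genes. Some are annotated as genes in their own right, which bears on which gene a short read is counted to. A few members have a like-named paralogue, such as Rpl22l1 beside Rpl22 or Rpl3l beside Rpl3, that can take the same place in the ribosome.

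The pair Rps27 and Rps27rt shows how alike such copies can be. Rps27, a zinc-finger protein of the small subunit, lies on the minus strand of chr3:90212522-90213651 (mm10) with 4 exons, and Rps27rt on the minus strand of chr9:114982366-114982739 in 1 exon. Their coding sequences of 255 bases are identical, with 0 differences, so the coding part of a read cannot place it. It is printed once for both, with no part marked.
Rps27 and Rps27rt, coding: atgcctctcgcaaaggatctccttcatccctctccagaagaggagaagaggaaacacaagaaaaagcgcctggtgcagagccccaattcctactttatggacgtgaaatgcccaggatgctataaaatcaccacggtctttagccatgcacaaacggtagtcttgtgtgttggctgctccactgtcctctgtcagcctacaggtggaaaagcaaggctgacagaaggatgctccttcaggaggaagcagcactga

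The sequences before their annotated starts differ, which is shown by the 60 bases before and the 20 bases from the start (RefSeq, GRCm38.p6, chr3:90213629-90213708 and chr9:114982720-114982799, both minus strand). Capitals mark CTTTC, a pyrimidine word of the TOP kind. Before the start, the longest run of bases shared by the promoters was 10, within the 250 bases the table holds there. Over the whole window, which goes 50 bases past the start, it was 38.
Rps27 promoter: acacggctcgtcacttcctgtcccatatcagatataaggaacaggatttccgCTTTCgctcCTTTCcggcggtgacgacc
Rps27rt promoter: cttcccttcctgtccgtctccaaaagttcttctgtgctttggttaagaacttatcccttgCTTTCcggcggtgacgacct

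In both windows a CTTTC lay at or next to the annotated start. Of the 85 members, 65 were found in the RefSeq promoter table, with 77 promoters. CTTTC on the transcribed strand, within 25 bases on either side of the start, was present in 20 of the 77 (26.0%), against 6.75% of all 32851 promoters. CCGGAAG, a word of the ETS factor family, was present on either strand of the whole 300-base window in 35.1% of member promoters and 8.86% of all. AAGATGGC, a word that YY1 is known to bind, was present in 10.4% and 2.75% on the same count. A match of letters is a description and does not show that a factor binds.

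Rpl10, a large-subunit protein that sits near the peptidyl transferase centre, has a copy of the same kind. Rpl10 lies on the plus strand of chrX:74270812-74273135 with 6 exons, and Rpl10-ps3 on the minus strand of chr9:50344201-50344968 in 1 exon. Their coding sequences are identical over 645 bases. The last 150 bases (496 to 645) stand for both here. The RNA was captured by its polyadenylated tail, but which end of it was read is not stated.
Rpl10 and Rpl10-ps3, end of coding: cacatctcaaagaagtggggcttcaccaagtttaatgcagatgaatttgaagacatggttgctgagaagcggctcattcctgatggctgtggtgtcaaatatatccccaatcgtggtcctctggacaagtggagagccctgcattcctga

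Barcodes with 500 genes or more, 1000 UMIs or more and a mitochondrial share of 10% or less were kept as cells. In the PBS-labelled library 5932 of 10456 barcodes passed, with 57160088 UMIs and a median of 6902.5 per cell. In the sitagliptin-labelled library 18380 of 22085 passed, with 85056939 UMIs and a median of 2197. Among the retained barcodes, 41 occurred in both libraries. The libraries are called labelled because a letter in the deposited name of each is the initial of the other treatment, and a swap would turn every direction given here. Classes were named from marker genes after clustering without any ribosomal protein gene. No class was given to 9.63% of cells from the PBS-labelled library and to 40.1% from the other, most of the latter in a cluster of low depth that held 20 and 6298 cells. Levels are given in CPM, the UMIs of a gene per 1000000 UMIs of the class in that library. Markers of other classes were present in every class, and in some they were as high as its own. The suprabasal keratinocyte markers summed to 55767 CPM in PBS-labelled suprabasal keratinocytes and still to 27193 CPM in dendritic or Langerhans cells and 29247 CPM in skeletal muscle cells of that library. The 9 fibroblast markers were lower outside their class, with 658 CPM in PBS-labelled basal keratinocytes against 43066 CPM in fibroblasts. The part of such RNA in the values of the classes was not tested. The doublet caller, at its automatic threshold, marked 2 and 0 cells. Why it marked so few was not tested. No cell was removed as a doublet, so doublets may remain in the classes.

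Ribosomal protein genes made up a large part of all UMIs, and their share ranged from 14.5% to 25.3% over the cell classes of the PBS-labelled library with at least 30 cells. It was 25.3% in upper follicle keratinocytes, 24.5% in basal, 23.2% in dividing and 22.1% in suprabasal keratinocytes, and 22.3% in those of the outer root sheath or bulge. Dendritic or Langerhans cells had 23.7%, skeletal muscle cells 22.2%, sebocytes 21.5% and T cells or innate lymphoid cells 21.2%. Blood endothelial cells (19.0%, 36 cells), lymphatic endothelial cells (16.9%, 51 cells), fibroblasts (16.5%, 496 cells) and macrophages or monocytes (14.5%, 1047 cells) were lowest. Suprabasal, skeletal muscle and outer root sheath or bulge cells, neighbours in this order, differed by far less than the quartile range of their cells. In T cells or innate lymphoid cells the share of the summed UMIs stood above that of the median cell (12.9%). Fibroblasts and macrophages of this library were low by both measures, with medians of 15.5% and 12.3% over cells. In the sitagliptin-labelled library, with 58 and 48 cells, the medians were 21.6% and 19.1%, beside 20.1% in suprabasal keratinocytes, so fibroblasts were not low by the median cell there.

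**Figure D1:**
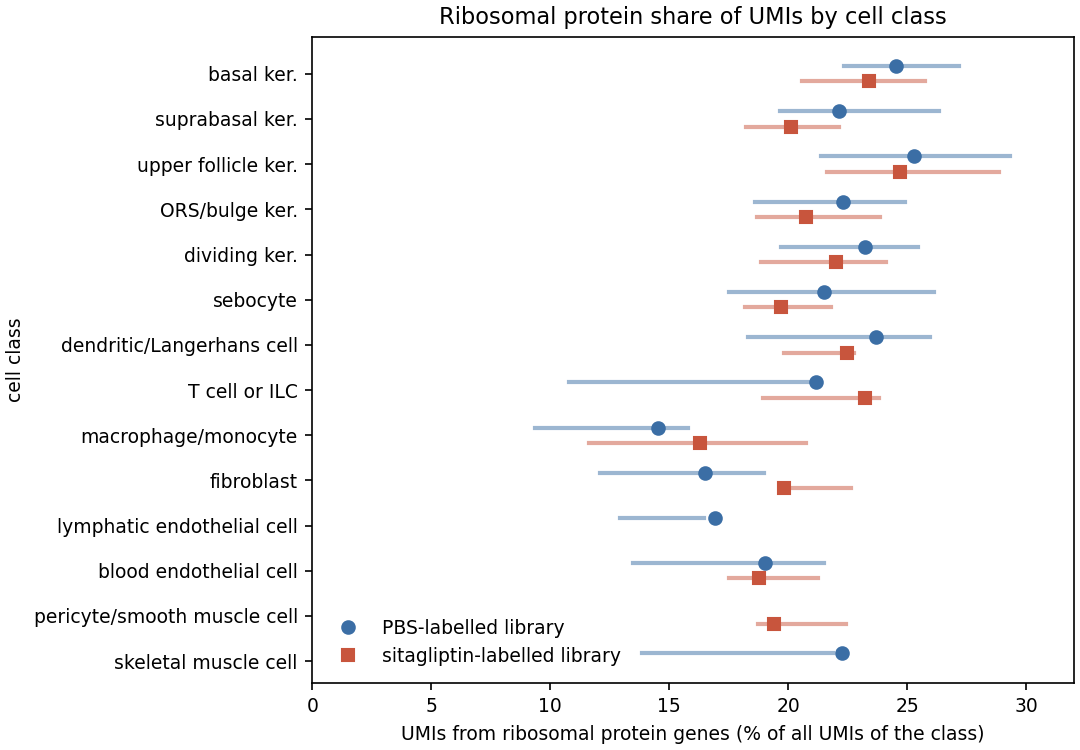
Share of all UMIs that came from the 85 ribosomal protein genes, in percent, by cell class (rows) and library (circles PBS-labelled, squares sitagliptin-labelled; classes with at least 30 cells in a library). Points are the share of the summed UMIs and bars span the quartiles of single cells; upper follicle keratinocytes were highest at 25.3% and 24.7%, and macrophages or monocytes lowest at 14.5% and 16.3%.

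Within classes, clusters differed as well. Of the macrophage clusters in the PBS-labelled library, the one led by Lyve1, Folr2 and C1qc had a share of 12.4% and the one led by Ccr2 and Lyz1 16.2%. The suprabasal cluster led by Kprp and Slurp1, genes of late keratinocyte differentiation, had 17.2% with the PBS label and 17.9% with the sitagliptin label. The suprabasal cluster led by Ccr4 and Skint7 had 23.2% and 22.2%. Among dividing keratinocytes, the cluster led by histone genes such as Hist1h2ae had 24.9% and 24.1%, and the cluster led by mitotic genes such as Aurkb and Plk1 had 21.4% and 19.6%. The highest share of all was in an unnamed cluster led by Cldn10, Slc7a2 and Dct, with 26.8% of 124 cells' UMIs and 27.7% of 185 cells' UMIs. The orders given for these suprabasal and dividing clusters were the same in both libraries. The suprabasal cluster led by Flg2 and Hrnr did not keep its place, with 24.9% (30 PBS-labelled cells) and 19.9% (2372 sitagliptin-labelled cells). It stood above the cluster led by Ccr4 in the PBS-labelled library and below it in the other.

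The members themselves spanned a wide range. Averaged over the 5 keratinocyte classes and both libraries, members of high level included Rpl13 (6227 CPM), Rpl41 (5622 CPM), Rps29 (5333 CPM) and Rps12 (4786 CPM). Rpl41 encodes the smallest of the ribosomal proteins. The stalk proteins Rplp0 (4468 CPM), Rplp1 (4674 CPM) and Rplp2 (2877 CPM), which recruit elongation factors, and Rpsa (4761 CPM), also known as the laminin receptor precursor, were among the abundant members. Rps6, the target of the S6 kinases, stood at 1355 CPM. At the other end were the paralogues Rpl22l1 (521 CPM), Rpl36al (380.4 CPM), Rps27l (352 CPM), Rpl7l1 (68.1 CPM) and Rps27rt (65.9 CPM), with Rpl39l (0.460 CPM) and Rpl3l (0.115 CPM) close to 0. These are UMI counts and were not divided by length.

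Between the libraries the share of ribosomal protein UMIs was slightly lower in the sitagliptin-labelled library in 7 of the 8 classes with at least 50 cells in each. In basal keratinocytes it was 23.4% against 24.5%, a ratio of 0.955 (0.953 to 0.957). It was 20.1% against 22.1% in suprabasal keratinocytes, a ratio of 0.910 (0.909 to 0.912). Upper follicle keratinocytes had 24.7% against 25.3% (ratio 0.978), those of the outer root sheath or bulge 20.8% against 22.3% (ratio 0.931) and dividing keratinocytes 22.0% against 23.2% (ratio 0.948). Sebocytes (ratio 0.916) and dendritic or Langerhans cells (ratio 0.948) went the same way. Some classes under that limit of 50 cells did not. Macrophages or monocytes (48 sitagliptin-labelled cells) had 16.3% against 14.5%, and T cells or innate lymphoid cells (45 cells) 23.2% against 21.2%. Blood endothelial cells (36 PBS-labelled cells) had 18.8% against 19.0%. No class passed a fold of 1.5. With 1 library per treatment, treatment and library cannot be told apart.

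Fibroblasts went the other way, with 19.8% in the sitagliptin-labelled and 16.5% in the PBS-labelled library, a ratio of 1.201 (1.19 to 1.21). This class held 58 sitagliptin-labelled and 496 PBS-labelled cells. By gene, 75 of 82 members compared were higher there and 7 lower, while 51.2% of all genes compared were lower, and 9 members were at least 1.5-fold higher against 23.3% of all genes compared. Rpl10 and Rpl7l1 were at least 1.5-fold lower, against 29% of all genes. Rps27rt, 1 of the 9, met the limit of 50 CPM for a comparison only through the sitagliptin-labelled library, and Rpl7l1 (66.4 and 43.4 CPM) only through the other, so the filter fixed their directions. The 9 fibroblast markers summed to 14621 CPM there against 43066 CPM, and the 8 basal keratinocyte markers to 18263 CPM against 4490 CPM. Of the 10 macrophage markers 9 were at 0 in the sitagliptin-labelled cells. The part of these markers in the share was not tested.

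Depth and class composition also differed with the library. In keratinocytes of 4000 to 8000 UMIs, a range that both libraries fill, the member share was 24.1% in the PBS-labelled and 21.9% in the other library. From 1000 to 2000 UMIs it was 23.5% and 21.3%, and at 16000 UMIs or more 23.7% and 21.8%. These values pool the 5 keratinocyte classes, whose mix differed with the library (666 and 3591 suprabasal, 812 and 955 basal cells). Depth apart from class was not tested. The suprabasal class was mainly the cluster led by Ccr4 in the PBS-labelled library (559 of 666 cells) and the cluster led by Flg2 and Hrnr in the other (2372 of 3591 cells). In the cluster led by Ccr4 alone the shares were 23.2% and 22.2%. They were 24.9% (30 cells) and 19.9% in the cluster led by Flg2 and Hrnr. The cluster led by Kprp and Slurp1 (77 and 320 cells) went the other way, with 17.2% and 17.9%. Sebocytes came mainly from different clusters as well, 67 of 76 cells from the cluster led by Igfbp2 and 1369 of 1446 from the cluster led by Fa2h. In the outer root sheath or bulge, the cluster led by Krt24 had 23.0% and 22.0%. That led by Krt75 had 23.0% (13 cells) and 19.1%. The one led by Ramp1 (62 and 330 cells) went the other way, with 20.1% and 20.6%. Of 18 genes known to respond to tissue dissociation, 17 had lower levels in basal and 18 in outer root sheath or bulge keratinocytes of the sitagliptin-labelled library, with median log2 ratios of -0.25 and -0.996. In upper follicle keratinocytes 15 were lower and 3 higher (median -0.24), in suprabasal 13 and 5 (-0.38) and in dividing keratinocytes 13 and 5 (-0.16). Their part in the shares was not tested.

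Gene by gene, most members differed little between the libraries, while Rpl10 had the lowest ratio in all 5 keratinocyte classes and Rps27rt the highest in 4. A gene was compared where it had at least 50 CPM in either library and at least 20 UMIs. In basal keratinocytes 83 of the 85 members met this, and in the other 4 keratinocyte classes 82. Rpl39l and Rpl3l never did. Rps27rt met it only through the sitagliptin-labelled library in 4 of the 5 keratinocyte classes (not in outer root sheath or bulge). The filter thus fixed its direction in those 4. In basal keratinocytes 77 of 83 members were within 1.2-fold of equal levels, with 59 lower and 24 higher, beside 50.5% of all genes compared that were lower. The median log2 ratio of the members was -0.08 in basal keratinocytes, where that of all genes compared was -0.0017. It was -0.15 against 0.04 in suprabasal, -0.05 against -0.02 in upper follicle and -0.10 against -0.02 in dividing keratinocytes. In outer root sheath or bulge keratinocytes it was -0.10 against 0.01. Of the 82 members compared in all 5 classes, 52 were lower in each and 13 higher in each. Of the 2332 genes compared in all 5, 15.3% were lower in each and 18.2% higher in each.

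Rpl10 was at least 1.5-fold lower in the sitagliptin-labelled library in each of the 5 keratinocyte classes. The background, the share of all genes compared that were at least 1.5-fold lower, was 0.607% in basal, 0.392% in upper follicle, 0.682% in suprabasal and 0.771% in dividing keratinocytes, and 2.25% in the outer root sheath or bulge. A count of 1 member in 82 or 83 is near these backgrounds and sets nothing apart about the members as a set. The level of Rpl10 in basal keratinocytes was 1603 CPM with the PBS label and 969 CPM with the sitagliptin label, 1.66-fold lower (1.596 to 1.716). It was 1337 and 754 CPM in suprabasal keratinocytes, 1.77-fold lower. In upper follicle keratinocytes the levels were 1550.2 and 964 CPM, 1.61-fold lower. In outer root sheath or bulge they were 1368 and 829 CPM, 1.65-fold lower, and in dividing keratinocytes 1416 and 814 CPM, 1.74-fold lower. In every one of these classes the PBS-labelled library was the higher, and the next lowest member, Rpl9 or Rpl35, was at most 1.35-fold lower.

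The lower level of Rpl10 was not limited to keratinocytes. Sebocytes had 1336 and 734 CPM, dendritic or Langerhans cells 1456 and 851 CPM, and fibroblasts 1079 and 694 CPM. Macrophages or monocytes had 1035 CPM in 1047 PBS-labelled and 530.2 CPM in 48 sitagliptin-labelled cells. In T cells or innate lymphoid cells, 99 and 45 cells, the levels were 1298 and 960.0 CPM, a 1.35-fold difference (1.17 to 1.56). Keratinocyte markers were also higher in the sitagliptin-labelled cells of some of these classes. The basal and suprabasal markers summed to 15676 and 19003 CPM there against 7236 and 3883 CPM in sebocytes, and to 10815 and 8314 CPM against 5677 and 6148 CPM in macrophages or monocytes. In dendritic or Langerhans cells the sums were 16175 and 35295 CPM against 15559 and 27193 CPM. The part of this RNA in the level of Rpl10 was not tested. Rpl10 was the member at least 1.5-fold lower in dendritic or Langerhans cells, against a background of 4.63%, and 1 of 3 in sebocytes, with Rps19bp1 and Rpl7l1, against 18.8%. Rps19bp1 (76.7 and 48.8 CPM) was compared in sebocytes only through the PBS-labelled library, so its direction there was fixed by the filter. As a share of all ribosomal protein UMIs, in which a difference of the whole set cancels, Rpl10 was 1.58-fold lower in basal, 1.61-fold in suprabasal and 1.65-fold in dividing keratinocytes. On that scale too it was the member past 1.5-fold in each keratinocyte class, against 0.337% of all genes in basal, 0.294% in upper follicle, 0.389% in suprabasal and 0.617% in dividing keratinocytes and 1.58% in the outer root sheath or bulge.

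Rps27rt was the member with the highest ratio in 4 of the 5 keratinocyte classes. In these 4 it met the limit of 50 CPM only through the sitagliptin-labelled library, so the filter fixed its direction there. In basal keratinocytes its level was 40.97 CPM with the PBS label (268 UMIs) and 83.7 CPM with the sitagliptin label (355 UMIs), a ratio of 2.04 (1.74 to 2.40). It was 41.1 and 75.02 CPM in suprabasal (ratio 1.82), 49.2 and 100.5 CPM in upper follicle (ratio 2.04) and 42.6 and 78.3 CPM in dividing keratinocytes (ratio 1.84). In outer root sheath or bulge it was 61.1 and 86.2 CPM, a ratio of 1.41 (1.11 to 1.81), which is below 1.5. The sitagliptin-labelled library was the higher in each class. The share of all genes compared that were at least 1.5-fold higher was 1.82% in basal, 1.6% in upper follicle, 3.28% in suprabasal and 3.48% in dividing keratinocytes and 5.05% in the outer root sheath or bulge, so a count of 1 member is again near the background. As a share of the pool, Rps27rt passed 1.5-fold in all 5, with Rpl36al beside it in the outer root sheath or bulge (6.81% of all genes), against 2.53% in basal, 1.8% in upper follicle, 5.65% in suprabasal and 4.81% in dividing keratinocytes. Outside keratinocytes the levels were 33.8 and 69.1 CPM in sebocytes and 48.1 and 84.6 CPM in dendritic or Langerhans cells, against backgrounds of 14.8% and 4.51%. In both it met the limit of 50 CPM only through the sitagliptin-labelled library, so these values count for no more than a description.

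**Figure D2:**
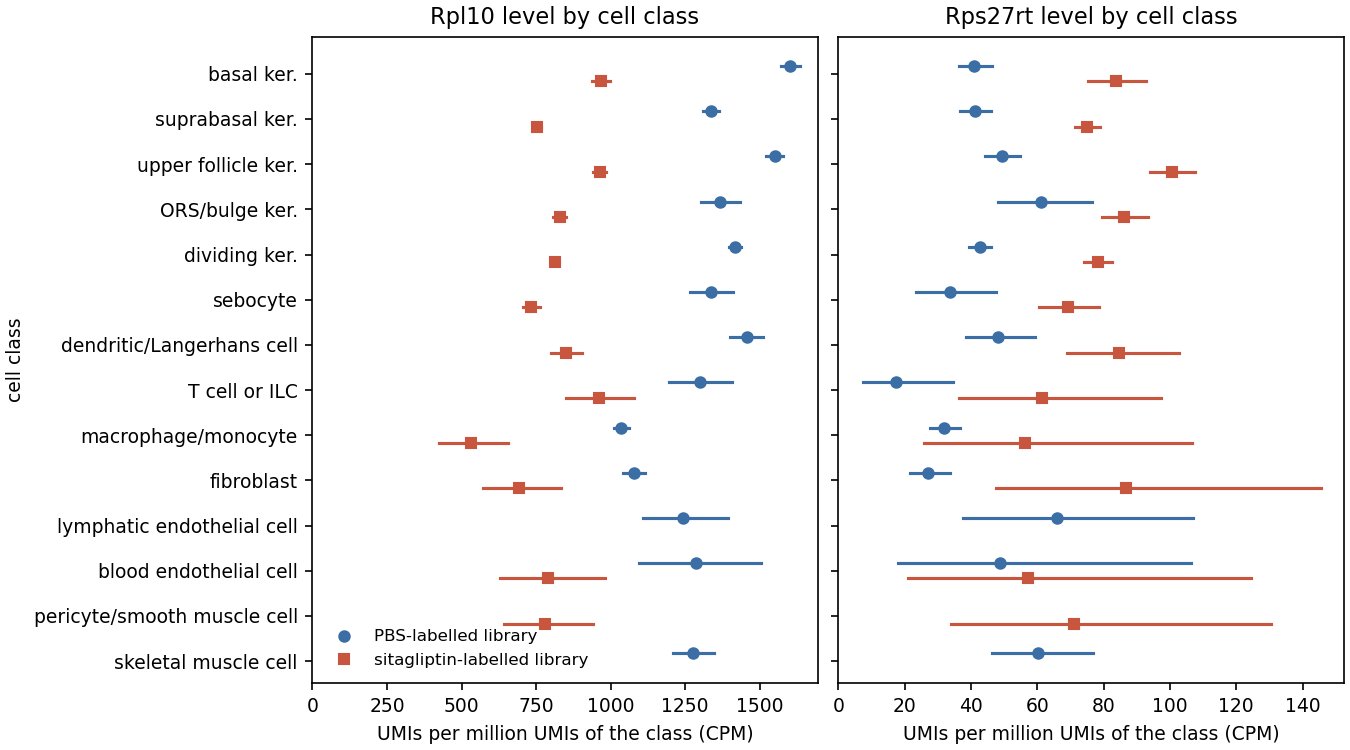
Level of Rpl10 (left) and Rps27rt (right) in CPM by cell class (rows) and library (circles PBS-labelled, squares sitagliptin-labelled; classes with at least 30 cells in a library). Bars are 95% counting intervals, and no library has a replicate. Rpl10 lies lower in the sitagliptin-labelled library in each class shown with both libraries (1603 against 969 CPM in basal keratinocytes). Rps27rt lies higher in each (40.97 against 83.7 CPM in basal keratinocytes). The interval of its ratio spans 1 in macrophages or monocytes (0.795 to 3.42) and blood endothelial cells (0.313 to 4.37).

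Rps27 itself, with the identical coding sequence, was nearly level. It stood at 3363 and 3397 CPM in basal and at 2881 and 2788 CPM in suprabasal keratinocytes. The sum of Rps27 and Rps27rt was 3404 and 3481 CPM in basal keratinocytes, a ratio of 1.02. In basal keratinocytes Rps27rt held 1.204% of the pair's UMIs with the PBS label (1.06% to 1.36%) and 2.40% with the sitagliptin label (2.16% to 2.67%). Over all 5 keratinocyte classes it held 1.30% and 2.45%. Rps27rt shared 91.6% of the 31-base words at its annotated 3′ end with Rps27, and Rps27 49.8% of its words with Rps27rt, so sequence alone cannot assign most reads from the end of Rps27rt.

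The same measure for Rpl10 was 84.3%, shared with Rpl10-ps3. Rpl10-ps3 was at 39.3 and 37.3 CPM in basal and 28.0 and 31.6 CPM in suprabasal keratinocytes, far below Rpl10. The sum of the pair was 1642 and 1006 CPM in basal keratinocytes, a ratio of 0.612 (0.591 to 0.635), so the ratio was nearly the same with the copy's UMIs added. Of the 82 members compared, 20 shared over 20% of their words with another counted gene, and their median ratios over the 5 classes ran from 0.604 to 1.84. The 49 members that shared none ran from 0.852 to 1.17. Rpl10, Rps27rt, Rpl36al, Rpl27, Rpl9 and Rpl35 were all among the 20. The part of shared sequence in their ratios was not tested.

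The other members at the ends of the range were the same in most classes. On the higher side were Rpl36al, a paralogue of Rpl36a, and the large-subunit protein Rpl27. Rpl36al was at 386 and 549 CPM in basal keratinocytes, a ratio of 1.42 (1.35 to 1.51). In outer root sheath or bulge keratinocytes it was at 229 and 344 CPM, a ratio of 1.501 (1.33 to 1.70), and was the member at least 1.5-fold higher there, though under some alternatives it was below 1.5 (lowest 1.31). Its ratio was 1.24 in suprabasal, 1.37 in upper follicle and 1.25 in dividing keratinocytes. The ratio of Rpl27 ran from 1.27 to 1.32 over the 5 classes, with 528 and 683 CPM in basal keratinocytes. Rps26, which lies at the mRNA exit side of the small subunit, had ratios from 1.11 to 1.26, and Rps28, its neighbour there, from 1.06 to 1.19. Rps26 and Rps28 shared 0% of their words with another counted gene, Rpl36al 49.7% with Gm49383, which was at 0 CPM in all 5 classes, and Rpl27 33.3% with Rpl27-ps3. Rps26 shared 63.0% with annotated genes that were not among those counted. Above 1 in all 5 classes were also Rpl23a, Rpl24, Rpl31, Rpl38, Rpl6, Rps15, Rps29 and Rpsa, with ratios of 1.02 to 1.14. The ratio of Rpl7l1 ran from 0.892 to 1.25. Rps19bp1, among the 6 highest in basal keratinocytes (45.7 and 50.9 CPM, ratio 1.11), met the limit of 50 CPM only there and only through the sitagliptin-labelled library, so its place is set by the filter.

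On the lower side, Rpl9 was at 2658 and 2087 CPM in basal keratinocytes, 1.27-fold lower (1.24 to 1.31), and at 2229 and 1648 CPM in suprabasal keratinocytes, 1.35-fold lower. Rpl35, a protein at the exit of the nascent peptide tunnel, was at 1616 and 1342 CPM in basal and 1488 and 1138 CPM in suprabasal keratinocytes, 1.204- and 1.31-fold lower. Rps2, which lines the mRNA entry of the small subunit, was 1.18-fold lower in basal and 1.24-fold in suprabasal keratinocytes. The ratio of Rpl41 ran from 0.805 to 0.890 over the 5 classes and that of Rpl11, which can bind Mdm2 outside the ribosome, from 0.796 to 0.876. The ratios of Rps20, Rpl30 and Rps7, which were among the 6 lowest in at least 1 class, stayed between 0.803 and 0.894. Rplp0 had ratios from 0.887 to 0.984, Rps6 from 0.927 to 0.990 and Rps4x, encoded on the X chromosome as Rpl10 is, from 0.894 to 0.947.

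**Figure D3:**
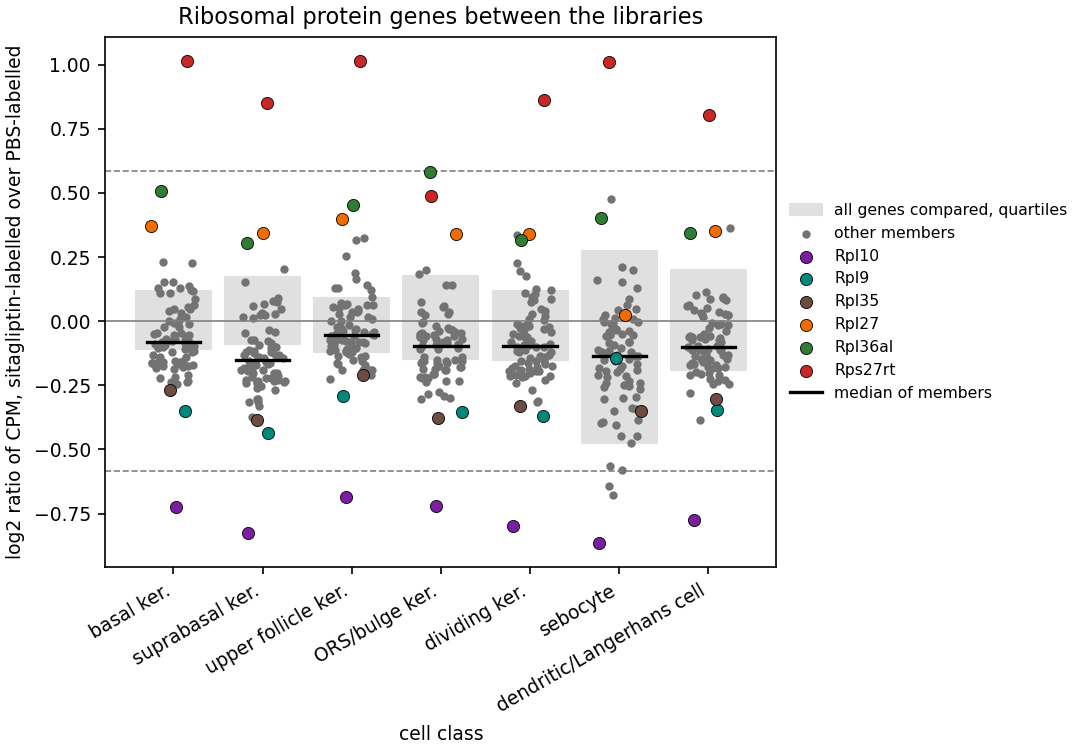
Each point is a ribosomal protein gene, placed by the log2 ratio of its CPM in the sitagliptin-labelled over the PBS-labelled library (vertical axis) in 7 cell classes (horizontal axis). Grey boxes are the quartiles of all genes compared, black bars the medians of the members (-0.08 in basal keratinocytes) and dashed lines a 1.5-fold difference; Rpl10 lies below the lower line in all 7 classes, and Rps27rt above the upper line in 6, outer root sheath or bulge keratinocytes being the exception. In those 6 Rps27rt met the limit of 50 CPM only through the sitagliptin-labelled library.

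The paralogues were followed as their share of the pair with the canonical gene. Rpl22l1, a paralogue of Rpl22 that can stand in for it, held 28.8% of the pair in basal keratinocytes (28.1% to 29.5%) and 22.8% in upper follicle keratinocytes of the PBS-labelled library, with 22.5% in the outer root sheath or bulge. It held 35.3% in fibroblasts (33.9% to 36.7%) and 23.1% in macrophages or monocytes (22.2% to 24.1%) of that library, with intervals that do not overlap. In the 58 sitagliptin-labelled fibroblasts it held less, 28.1% (23.1% to 33.6%). In the sitagliptin-labelled library it held 27.1% in basal, 26.3% in suprabasal and 21.0% in upper follicle keratinocytes, against 28.8%, 29.7% and 22.8%. Rpl36al held a larger share in the sitagliptin-labelled library in each of the 5 keratinocyte classes. It held 25.9% against 18.5% in basal, 21.1% against 15.2% in upper follicle, 25.4% against 19.4% in suprabasal and 22.8% against 17.6% in dividing keratinocytes, and 19.6% against 12.2% in the outer root sheath or bulge. The intervals of the libraries did not overlap in any of these classes. Counting intervals are narrow here and separated most members. In basal keratinocytes the interval of the level ratio lay below 1 for 52 of 83 members and above 1 for 18.

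Rps27l, a paralogue of Rps27 known as a p53 target, held 9.82% of that pair in basal keratinocytes, 16.6% in macrophages or monocytes, 17.4% in sebocytes and 13.3% in fibroblasts of the PBS-labelled library. In level, Rps27l differed little, with 366 CPM in basal keratinocytes and 372 CPM in macrophages or monocytes, while Rps27 was at 3363 and 1862 CPM. Rpl7l1 held 2.87% of its pair in basal keratinocytes (2.62% to 3.14%) and 4.98% in macrophages or monocytes (4.53% to 5.45%).

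A few paralogues were found mainly in 1 class. Rpl3l, the muscle paralogue of Rpl3, had 123 UMIs in the 115 skeletal muscle cells of the PBS-labelled library, a level of 117 CPM and 6.91% of the pair (5.77% to 8.18%). All keratinocytes of that library together had 10 UMIs, or 0.276 CPM. The muscle class also held 29247 CPM of suprabasal keratinocyte markers against 25519 CPM of its own, so the level of Rpl3l there is that of a mixture of RNA. Rpl39l, known mainly from testis, had 110 UMIs in the 496 PBS-labelled fibroblasts, 36.0 CPM and 1.203% of its pair (0.990% to 1.45%). In basal keratinocytes of that library it had 0 UMIs, and in macrophages or monocytes 11 (1.82 CPM). In the 58 sitagliptin-labelled fibroblasts it had 3 UMIs. Rps4l was not among the counted genes.

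**Figure D4:**
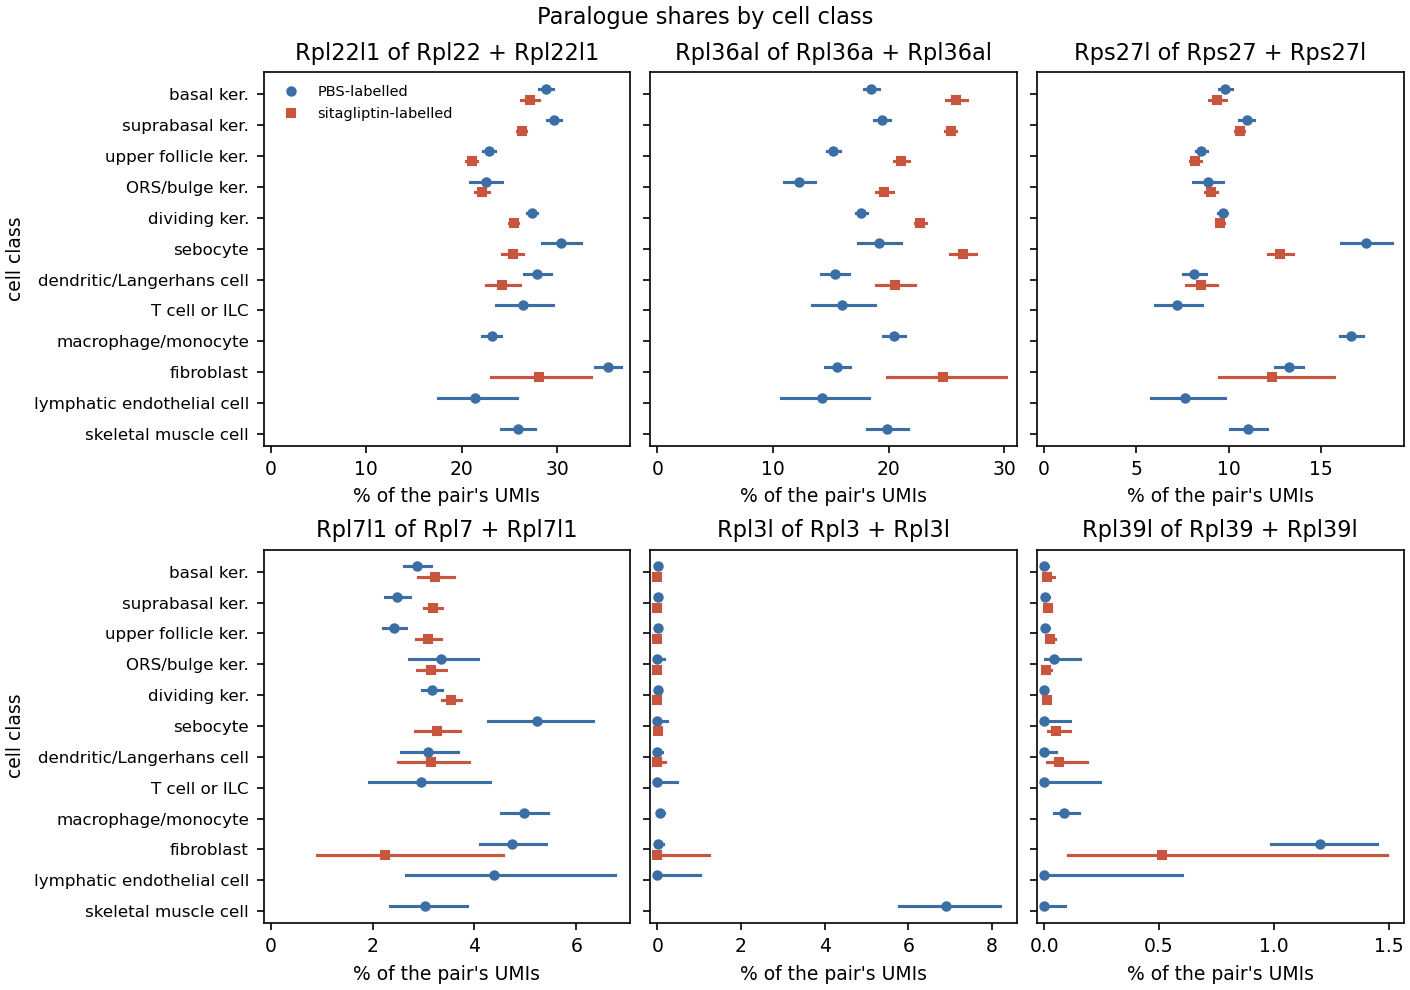
Share of a paralogue in the UMIs of its pair, in percent (horizontal axes), for 6 pairs by cell class (rows) and library (circles PBS-labelled, squares sitagliptin-labelled), with 95% counting intervals. Rpl36al lies to the right in the sitagliptin-labelled library in each keratinocyte class (25.9% against 18.5% in basal), and Rpl3l stands out in skeletal muscle cells (6.91%) as does Rpl39l in fibroblasts (1.203%, PBS-labelled).

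Within the PBS-labelled library, the make-up of the ribosomal protein pool was compared between keratinocytes (the 5 classes together, 23.6% of UMIs) and other classes, with 81 to 83 members compared. In macrophages or monocytes 63 of 81 members had a level at least 1.5-fold lower, against 23.7% of all genes compared, and 0 were as much higher, against 31.4%. In fibroblasts 33 of 81 were lower (background 25.5%) and 0 higher (29.1%), and in lymphatic endothelial cells 28 of 82 (25%) and 0 (32%). In dendritic or Langerhans cells 0 were lower (4.08%) or higher (6.24%), as in T cells or innate lymphoid cells (9.72% and 18.4%). Basal and suprabasal keratinocyte markers summed to 15559 and 27193 CPM in the former and to 12713 and 17926 CPM in the latter. The median T cell or innate lymphoid cell had a share of 12.9%, against 21.2% of the summed UMIs. The part of keratinocyte RNA in these values was not tested. In skeletal muscle cells 0 were lower (10.7%) and Rpl3l was higher (10.6%), a gene compared only because its level in muscle passed the limit of 50 CPM. With the sitagliptin label, 1 of 82 members was lower in fibroblasts (background 16.7%), Rpl7l1 on 7 UMIs, which was compared only through its level in keratinocytes. From such shares, less ribosomal protein mRNA and more of other RNA per cell cannot be told apart.

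As shares of the pool, where the lower total cancels, few members passed 1.5-fold. In macrophages or monocytes 0 were lower (background 11.5%) and 3 higher (55.9%). The 3 were Rpl7l1 (ratio 1.84), Rps27l (1.69) and Rps29 (1.57). Rps29, a zinc-binding protein of the small subunit, held 3.47% of the pool there against 2.21% in keratinocytes, and Rpl38, known for its part in the translation of Hox mRNAs, 1.58% against 1.12%. Rps2 held 1.26% against 1.77% and Rplp0 1.46% against 1.99%. In fibroblasts 1 member was lower (13.8%) and 0 higher (42.9%). It was Rpl13a, with 0.0947% of the pool against 0.145%. Rpl4 was lower as well, 0.454% against 0.583%, and Rpl22l1 higher, 0.333% against 0.248%. In lymphatic endothelial cells 0 members were lower (13.6%) and 3 higher (48.5%), Rps21 with 2.49% against 1.65% and, on 16 and 19 UMIs, Rps27rt and Rpl7l1. Rps27rt (65.9 CPM against 43.97 CPM) was compared there only through its level in the endothelial cells. Rps29 was also the member most above keratinocytes in T cells or innate lymphoid cells, with 2.58%, and stood at 2.73% in dendritic or Langerhans cells. In skeletal muscle cells Rpl3l was higher (12.9%) and 0 were lower (7.56%), and Rpl37a held 2.43% against 1.78% and Rpl21 0.821% against 1.14%.

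**Figure D5:**
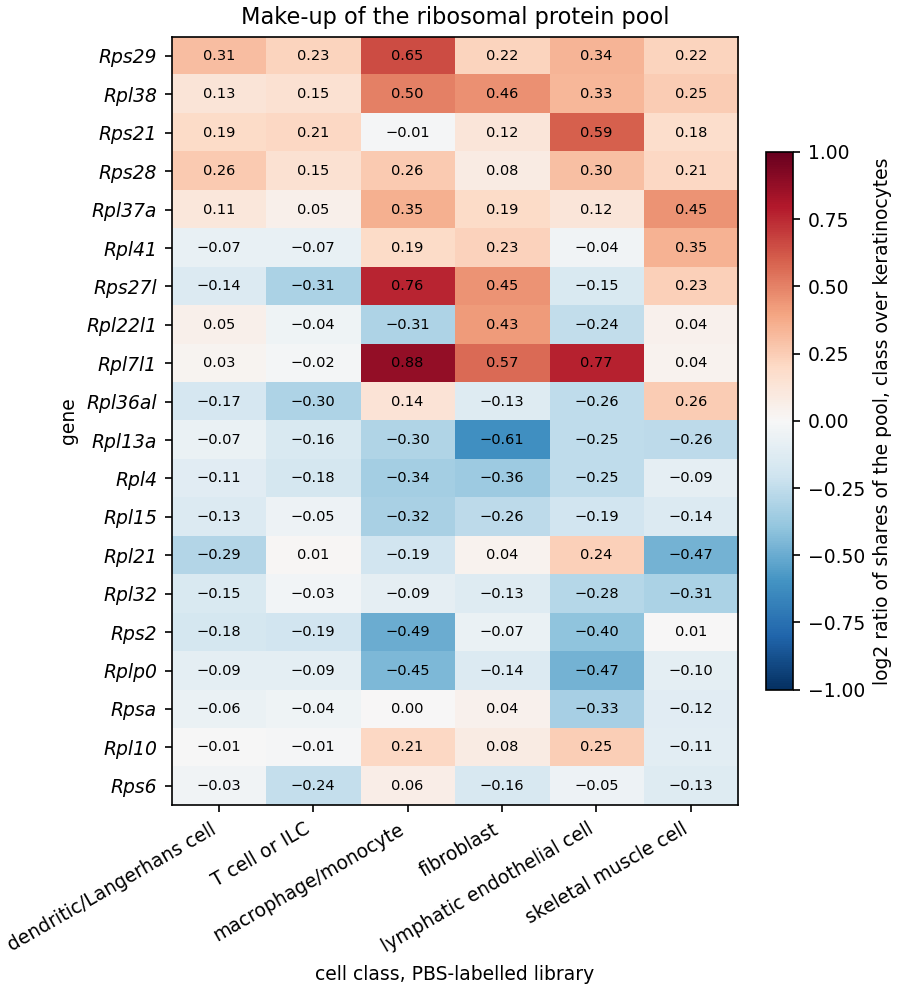
Colour and number give the log2 ratio of a gene's share of all ribosomal protein UMIs in a class (columns, PBS-labelled library) over that in keratinocytes, for 20 named members (rows). Rps29 lies above 0 in all 6 classes (its share was 1.57 times that of keratinocytes in macrophages or monocytes), and the strongest red is Rpl7l1 in macrophages or monocytes, with a ratio of 1.84.

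Among keratinocyte classes the pool was closer. From basal to suprabasal keratinocytes of the PBS-labelled library 0 of 81 members passed 1.5-fold in level, against 15.3% of all genes lower and 17.8% higher. Rpl31 held 0.524% of the pool in suprabasal and 0.416% in basal keratinocytes, and Rps29 2.34% and 1.91%. Rpl21 held 1.09% and 1.26%. In upper follicle keratinocytes 0 of 81 passed (10.8% and 13.8%), with Rpl23a at 1.05% against 0.789% and Rpl22l1 at 0.208% against 0.271%. In dividing keratinocytes 0 of 81 passed (3.14% and 9.5%), with Rpl23a at 0.986% against 0.789%. In outer root sheath or bulge keratinocytes 1 of 82 was lower in level (14.9%) and 0 were higher (19.1%). By share of the pool 1 was lower (10.9%) and 1 higher (23.3%), Rps27rt, which passed the limit of 50 CPM only in the outer root sheath or bulge. The lower member was Rpl36al, 229 CPM against 386 CPM in basal keratinocytes, a ratio of 0.594 (0.524 to 0.672). Rps21 and Rpl38 held larger shares there, 1.90% against 1.49% and 1.32% against 1.05%.

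Other genes of the translation apparatus, on fixed lists, were mostly near 1 between the libraries. Fau, which encodes a ribosomal protein fused to a ubiquitin-like protein, and Rack1, a scaffold protein of the small subunit, had ratios of 0.952 and 1.01 in basal keratinocytes. Of 20 elongation factors and other TOP mRNAs, 12 were lower and 8 higher there, 0 of them past 1.5-fold, with a median log2 ratio of -0.06. Eif2s3x, a subunit of an initiation factor, was the lowest of them, 1.17-fold lower. Of 28 initiation factors, 1 passed 1.5-fold in each of the 5 keratinocyte classes, Eif2s2, a subunit of the factor that brings the initiator tRNA. It was at 363 and 606 CPM in basal keratinocytes, a ratio of 1.67 (1.58 to 1.76). The share of all genes compared that were as much higher ran from 1.6% (upper follicle) to 5.05% (outer root sheath or bulge), so this count is near the background. Ddit4, an inhibitor of mTORC1 induced by stress and glucocorticoids, was at 54.9 and 87.0 CPM in basal keratinocytes (ratio 1.59). In outer root sheath or bulge it was at 41.02 and 137 CPM (ratio 3.33). Of its list of 21 regulators, 1 was at least 1.5-fold higher in basal keratinocytes (background 1.82%) and 2 in outer root sheath or bulge (5.05%). Of 77 measured mitochondrial ribosomal protein genes 49 were lower and 28 higher in basal keratinocytes, with a median of -0.09, beside -0.08 for the cytosolic members. In dividing keratinocytes 63 were lower and 14 higher (median -0.14), and in suprabasal 52 and 25 (-0.08). In outer root sheath or bulge keratinocytes 39 were lower and 38 higher (-0.009). In upper follicle keratinocytes 33 were lower and 44 higher, with a median of 0.04.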

How the data were processed

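The authors deposited a matrix of UMI counts per gene and barcode for each of the 2 libraries. Per the file headers and the submitters' processing notes these came from Cell Ranger 3.1.0, and the notes name the build mm10. Which end of the RNA was read, and how reads with several matching genes were counted, is not stated in the headers or labels.

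Cells were kept by the limits given above (500 genes, 1000 UMIs, 10% mitochondrial). They were clustered in scanpy 1.11.5 on 2000 variable genes without any Rpl, Rps or mitochondrial gene (30 components, 15 neighbours, Leiden resolution 1). A cluster was named where a marker list led with a score of at least 0.8, a lead of 0.2 and 3 detected markers. Counts were summed per library and class, divided by the class total and given as CPM. Ratios have exact conditional binomial intervals, shares Clopper-Pearson intervals, both at 95% and for counting error only. With 1 library per treatment there was no test, and a gene was counted as lower or higher past 1.5-fold. A gene was compared with at least 50 CPM in either group and 20 UMIs. Named were the 6 lowest and 6 highest members of each class with 200 cells or more in both libraries, the 5 most abundant, up to 5 each way by share of the pool in the comparisons of classes, the lowest and highest of each other list, and a fixed set (Rpl10, Rps27rt, the paralogue pairs, the stalk proteins, Rpsa, Rpl41, Rps4x, Rps6, Fau and Rack1). Clusters are described by leading genes. The full list of members higher in all 5 keratinocyte classes was added after their values were seen. Some genes that this rule names are not reported here. The sharing of 31-base words was taken over the last 500 bases of GENCODE vM21 transcripts. The members, gene lists and limits were chosen with earlier results of these data known.

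The level calculation was tested on simulated data for each keratinocyte class, with 200 altered genes among 1366 in basal keratinocytes. There, 100% of genes altered 2-fold passed 1.5-fold, 54% of those altered 1.5-fold, 0% of those altered 1.2-fold and 0 of 1166 unaltered genes, and the intervals covered 96.5% of the true ratios. Only genes with 100 CPM or more over both libraries were simulated, which leaves out Rps27rt, Rpl7l1 and Rps19bp1. The simulated counts held counting error only, so the result does not cover variation between libraries. In all, 20 alternatives were run on depth, mitochondrial limit, doublet scores, clustering, weighting, totals, pseudocount, gene filter and pool. Log2 ratios have a pseudocount of 1 CPM, and the other ratios have none.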

Additional observations from a re-analysis of the deposited data

Results flagged for a closer look

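The share of UMIs from ribosomal protein genes was higher in the sitagliptin-labelled library in fibroblasts, with a ratio of 1.201 (58 and 496 cells), and lower in the 7 other classes compared, with ratios from 0.910 to 0.978. The difference between fibroblasts and the other classes was not tested, since each treatment has 1 library. Fibroblast markers summed to 14621 CPM in the sitagliptin-labelled and 43066 CPM in the PBS-labelled cells of this class, and suprabasal keratinocyte markers to 27891 and 5743 CPM. Their part in the ratio was not tested.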

How the results depend on the processing

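No paired analysis was possible because each treatment has 1 library, and no replicate could be left out. The share of ribosomal protein UMIs stayed below 1 between the libraries in 69 of 70 keratinocyte values over the alternatives. The exception was suprabasal keratinocytes, at 1.01 with the members among the clustering genes. Its median ratio over the 5 keratinocyte classes, 0.948, became 0.956 in cells of 3000 to 8000 UMIs, 0.9203 at no more than 5% mitochondrial UMIs, 0.9503 with cells thinned to 1000 UMIs, 0.953 without the 8% highest doublet scores, 0.953 at Leiden resolution 2, 0.953 with the members among the clustering genes, 0.934 with clusters weighted equally and 0.953 as a mean over cells. Rpl10 stayed past 1.5-fold in 64 of 65 values, the exception being upper follicle keratinocytes thinned to 1000 UMIs, with a ratio of 0.668. Rps27rt was above 1 in 65 of 65 and past 1.5-fold in 55, all others being in the outer root sheath or bulge, where Rpl36al ran from 1.31 to 1.88. Outside the outer root sheath or bulge, the filter of the main comparison fixed the direction of Rps27rt, so these counts add no support for it. With at least 500 CPM required, the higher members went from 5 (summed over the classes) to 0. Within the pool, 5 lower and 6 higher members became 0 and 1 without Rpl10 and Rps27rt, and 0 and 0 without the members that share over 20% of words, both by construction. The calls among other translation genes, 20, became 62 at 3000 to 8000 UMIs, 73 at 5% mitochondrial UMIs, 104 when thinned, 38 with the members among the clustering genes, 33 with clusters weighted equally and 37 as a mean over cells. The cause was not tested. The share in fibroblasts over keratinocytes, 0.699, became 0.703 at 3000 UMIs or more, 0.716 at 5% mitochondrial UMIs, 0.652 without the highest doublet scores and 0.697 with the members among the clustering genes. In macrophages or monocytes it went from 0.615 to 0.628, 0.606, 0.541 and 0.613 in the same order. The Rps27rt share of its pair in PBS-labelled keratinocytes, 1.30%, became 1.22% at 5% mitochondrial UMIs. No value changed its direction past 1.5-fold. Depth limits the lowest members most: Rps27rt rests on 268 UMIs in PBS-labelled basal keratinocytes.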
